A study of Mus musculus with 45 samples.

Results

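Described here are 8 genes of prostaglandin and leukotriene metabolism in macrophages sorted from mouse skeletal muscle: Ptgs1, Ptgs2, Ptges, Hpgd, Alox5, Alox5ap, Ltc4s and Alox15. They were listed by name. Each gene was read from the probe set that carries its symbol alone, and where there were several, from the one with the highest mean over the 45 arrays. A value was obtained for 7 of the 8 genes, out of 19752 genes read in the same way. Ptgs1, the constitutive cyclooxygenase, was not listed with a probe set of its own here and has no value. Each of the other 7 had 1 such probe set and all 7 passed the intensity filter, which asks for a group mean of at least log2 7.57 (190 on the linear scale) in at least 1 group. Alox15 passed it in only 2 of the 18 groups, Hpgd and Ptges passed it in 16, and Ptgs2, Alox5, Alox5ap and Ltc4s in all 18.

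Eicosanoids are short-lived lipid signals made from arachidonic acid, which phospholipases A2 release from membranes. In 1 branch the cyclooxygenases Ptgs1 and Ptgs2 make prostaglandin H2, Ptges (microsomal prostaglandin E synthase) turns it into prostaglandin E2, and Hpgd (15-hydroxyprostaglandin dehydrogenase) starts the breakdown of prostaglandin E2. In the other, Alox5 (5-lipoxygenase) works with the membrane protein Alox5ap (FLAP) to make leukotriene A4, and Ltc4s (leukotriene C4 synthase) conjugates that to glutathione, while Alox15 (12/15-lipoxygenase) oxygenates fatty acids at other positions and is known as a marker of resident peritoneal macrophages and of alternative activation. Macrophages are a main source of both classes of lipid in injured tissue.

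The arrays (Affymetrix Mouse Gene 1.0 ST, 45 in 18 groups) measured RNA of sorted macrophages of male C57Bl6 mice. DTR+ mice carry Foxp3.DTR, a human diphtheria toxin receptor under the promoter of Foxp3, so that diphtheria toxin (DT) removes regulatory T cells, and DTR- mice lack it. Muscle was taken uninjured (day 0) or 1, 4 or 7 days after injection of cardiotoxin, a snake toxin that destroys muscle fibres. Sorting took Ly6g- CD11b+ F4-80+ cells and divided them into those with (MHCII+) and those without (MHCII-) class II antigen-presenting molecules on the surface. In the 24 h day 7 set, from mice aged 8 weeks, MHCII+ cells had 2 DTR+ and 4 DTR- arrays and MHCII- cells 3 of each genotype. In the 8 h day 7 set, at 12 weeks, MHCII+ cells had 3 of each genotype and MHCII- cells 3 DTR+ and 4 DTR-. A further day 7 set whose titles give no DT time, called untimed below, held 2 DTR+ and 2 DTR- MHCII+ arrays at 10 weeks. Day 1 (titled 24 h, age 8 weeks) held 2 arrays of each genotype and subset. Day 0 (10 weeks) and day 4 (8 weeks) held 2 DTR- arrays per subset, with no DT time in their titles. Where a title gives a DT time it stands on both genotypes, and the moment it is counted from is not stated. SiglecF+ cells were gated out of the 8 h day 7, day 1 and day 4 samples, and the labels list no such step for day 0, 24 h day 7 or untimed day 7. Day 0 thus differed in age from day 1, day 4 and the 24 h and 8 h day 7 sets, though not from the untimed set. The listed gate changed between day 0 and day 1 and between day 4 and 24 h day 7. A toxin time stands in the titles of day 1 and 24 h day 7 but not of day 0 or day 4. Where age, gate or toxin time changed, they cannot be told apart from the day.

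The 7 macrophage markers examined lay above the filter in every group. Summed class II genes reached 46940 to 60115 in arrays titled MHCII+, against 2071 to 23283 in those titled MHCII-, which follows the titles and not a marker entry of the labels that reads MHCII- for most samples. The genotype could not be checked on the arrays. In 7 cases the summed markers of a list in 1 library were over 1.5 times those of the next library of its group. Replicate 1 of day 0 DTR- MHCII- had a summed intensity of 10 neutrophil genes of 17301, against 4489 in replicate 2 of its group and 3289 to 3361 in the day 0 MHCII+ arrays. Replicate 1 of the 8 h DTR+ MHCII+ group had a T cell sum of 4882, against 1651 and 1738 in the other arrays of its group. In the 24 h DTR- groups, replicate 3 of MHCII+ had an eosinophil sum of 1150, against 604 to 733 in the others. Its neutrophil sum was also the highest of its group, 2122 against 1165 to 1487, under the 1.5 limit. Replicate 3 of MHCII- had a neutrophil sum of 3940, against 2305 and 2588. The other 3 cases were class II genes in replicate 2 of day 0 MHCII- and dendritic cell genes in replicate 3 of 24 h DTR+ MHCII- and replicate 2 of 8 h DTR- MHCII-. Calls that rest on the 4 libraries with high neutrophil, T cell or eosinophil sums are given without them beside the result. In sorted pools, fewer cells of a type and less RNA per cell cannot be told apart. Whether each sample was a separate animal is not stated in the labels; a p-value then covers only sample-to-sample spread, part of which may be technical.

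Among the 7 genes, Hpgd moved over the widest range, at least 22.3-fold between its lowest and highest group mean. Alox5 spanned 10.2-fold, Ltc4s 8.80-fold, Ptgs2 2.93-fold, Alox15 at least 1.86-fold, Alox5ap 1.79-fold and Ptges at least 1.52-fold. Where a group mean lay under the filter, its fold is given as at least the ratio to the filter, and the fitted difference beside it is a measured value of a dim probe. Levels of different probes cannot be compared with each other, so each gene is read against itself. The upstream sequence is shown for the cyclooxygenase, the prostaglandin E synthase, the catabolic enzyme and the 5-lipoxygenase, whose RNA levels carry the results below: Ptgs2 was highest at day 1, Ptges rose there in MHCII- cells, Hpgd was lowest at day 1 and in the untimed day 7 DTR+ group, and Alox5 fell from day 0 to day 1 and was lowest in that day 7 group. Each runs 5′ to 3′ from 250 bases before the annotated transcript start to 30 bases after it (RefSeq, GRCm38.p6). Capitals mark matches to the motifs named after them. Ptgs2 lies at chr1:150099781-150100060 (plus strand), Ptges at chr2:30903268-30903547 (minus strand), Hpgd at chr8:56294302-56294581 (plus strand) and Alox5 at chr6:116461149-116461428 (minus strand).
Ptgs2: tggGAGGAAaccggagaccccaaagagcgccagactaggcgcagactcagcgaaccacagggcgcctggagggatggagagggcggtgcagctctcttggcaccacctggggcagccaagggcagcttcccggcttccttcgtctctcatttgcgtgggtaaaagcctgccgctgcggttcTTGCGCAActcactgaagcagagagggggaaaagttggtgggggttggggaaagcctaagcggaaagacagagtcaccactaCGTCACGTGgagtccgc
Ptges: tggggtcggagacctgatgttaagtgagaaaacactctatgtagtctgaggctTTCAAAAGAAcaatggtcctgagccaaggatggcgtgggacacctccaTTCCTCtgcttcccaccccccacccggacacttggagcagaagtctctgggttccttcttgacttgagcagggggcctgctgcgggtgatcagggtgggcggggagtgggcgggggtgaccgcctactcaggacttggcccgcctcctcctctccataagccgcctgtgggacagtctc
Hpgd: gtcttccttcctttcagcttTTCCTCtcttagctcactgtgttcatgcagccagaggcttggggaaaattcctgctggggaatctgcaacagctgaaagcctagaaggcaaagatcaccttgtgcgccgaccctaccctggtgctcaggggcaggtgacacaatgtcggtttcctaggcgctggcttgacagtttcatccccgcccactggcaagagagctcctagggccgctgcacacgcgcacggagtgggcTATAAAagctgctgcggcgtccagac
Alox5: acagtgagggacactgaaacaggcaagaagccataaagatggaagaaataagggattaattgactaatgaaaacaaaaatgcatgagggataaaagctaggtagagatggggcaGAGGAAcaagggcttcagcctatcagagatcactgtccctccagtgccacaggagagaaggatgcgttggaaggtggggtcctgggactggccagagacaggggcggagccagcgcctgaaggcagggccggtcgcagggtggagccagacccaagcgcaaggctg

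The RefSeq promoter table held 6 of the 8 genes and did not list Alox5ap or Alox15. A total of 9 motifs were searched on both strands over 300 bases, 250 before and 50 after the start: TGACG (CRE core), TGANTCA (AP-1), GGG with TTTCC after any 2 bases (NF-kB), TTCNNNGAA (STAT), that motif with 1 more base in its middle (STAT6), GAGGAA (PU.1), TTGCNNAA (C/EBP), CACGTG (E-box) and the core promoter element TATAAA. The Ptgs2 window held the most kinds: GAGGAA at -247, TTGCGCAA at -69, which is the same on both strands, and CGTCA, the reverse complement of TGACG, at 13, which overlaps CACGTG at 16, counting the start as 0. Ptges held TTCAAAAGAA at -197 and TTCCTC, the reverse complement of GAGGAA, at -149. Hpgd held TTCCTC at -230 and TATAAA at 4. Alox5 held GAGGAA at -136, Ltc4s TTCCTC at 16 and Ptgs1 GAGGAA at -24. GAGGAA, the one motif found in all 6 windows, occurs in 28.3% of the 32851 mouse promoters of that length. TGACG occurs in 20.8%, TTGCNNAA in 10.8%, CACGTG in 7.15%, the STAT6 motif in 6.95% and TATAAA in 13.6%. The AP-1 (7.81% of promoters), NF-kB (1.63%) and STAT (8.30%) motifs were not among the letters of the 6 windows. These matches are descriptions of the sequence and no binding was measured.

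Differences below are log2 differences ± SE from limma over all 11074 genes that passed the filter, and a gene is said to rise, fall or differ where its Benjamini-Hochberg adjusted p was under 0.05. Of the 7 genes, 3 changed between day 0 and day 1 in DTR- MHCII+ cells, where 35.6% of all genes did, and 6 in MHCII- cells, where 25.6% did. In MHCII+ cells 1 rose and 2 fell (18.6% and 17.0% of all genes), and in MHCII- cells 2 rose and 4 fell (9.40% and 16.2%). Alox15, which passed the filter only through its high groups, is 1 of the 6, and 5 changed without it. From day 1 to day 4, 1 changed in MHCII+ cells (15.4% of all genes) and 3 in MHCII- cells (24.2%). From day 4 to the 24 h day 7 set none changed in either subset, against 2.46% and 1.17% of all genes; there 0 and 1 had an unadjusted p under 0.05, Ltc4s in MHCII- cells. Over these 6 comparisons 13 of 42 pairs of gene and comparison passed, 1 of them Alox15, against 17.4% over all genes. Successive steps share the day 1 and the day 4 arrays.

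**Figure D1:**
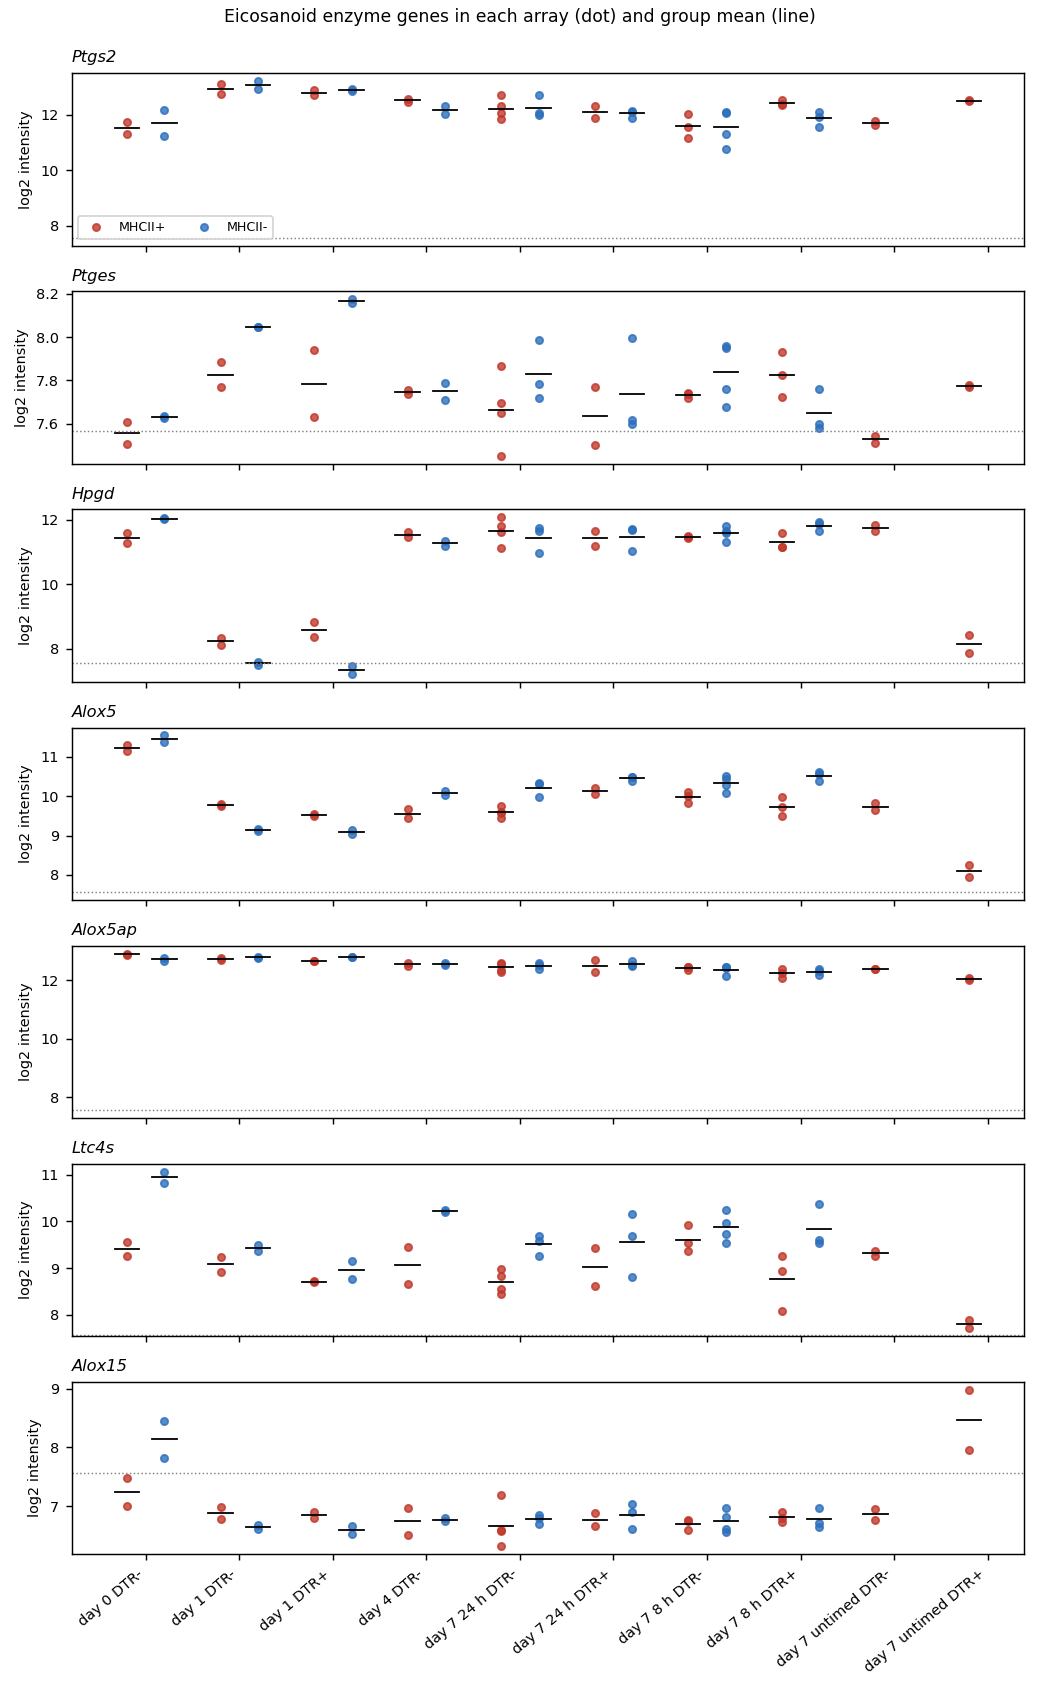
Log2 intensity (vertical axis, a separate scale for each gene) of the 7 genes in each of the 45 arrays (dots, red MHCII+ and blue MHCII-) with group means (lines), by day, set and genotype (horizontal axis). The dotted line is the filter at log2 7.57. Hpgd sits at 7.22 to 8.82 at day 1 and at 7.86 and 8.42 in untimed day 7 DTR+ cells, and between 10.97 and 12.08 in all other arrays.

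The inducible cyclooxygenase was higher at day 1 than in uninjured muscle. Ptgs2 lay at 11.28 and 11.75 in day 0 MHCII+ arrays and at 13.09 and 12.73 in day 1 DTR- MHCII+ arrays. In MHCII- arrays it lay at 11.22 and 12.18 at day 0 and at 13.21 and 12.92 at day 1. All 4 day 1 arrays lay above all 4 day 0 arrays, and the day 1 DTR+ arrays, at 12.72 to 12.92, were at the same height. The rise from day 0 was 1.39 ± 0.33 in MHCII+ cells (2.62-fold, adjusted p = 0.0012 by limma) and 1.36 ± 0.33 in MHCII- cells (2.57-fold, adjusted p = 0.0019). The second of these was 0.89 (adjusted p = 0.12) without replicate 1 of day 0 MHCII-, the library with the high neutrophil sum and the low Ptgs2 value. By day 4, Ptgs2 was at 12.45 and 12.57 in MHCII+ and 12.31 and 12.03 in MHCII- arrays. The fall from day 1 passed in MHCII- cells (-0.89 ± 0.33, adjusted p = 0.043) but missed the threshold without any 1 of the 4 arrays (adjusted p 0.083 to 0.24) and with no intensity filter (0.057). In MHCII+ cells the difference was -0.40 (adjusted p = 0.47).

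At day 7 Ptgs2 differed widely among arrays of 1 group, most in the DTR- arrays of the 8 h set. DTR- arrays of the 24 h set ran from 11.83 to 12.69 in MHCII+ and 11.98 to 12.71 in MHCII- cells, and those of the 8 h set from 11.14 to 12.03 and from 10.75 to 12.08. DTR+ arrays of the 8 h set lay at 12.33 to 12.51 in MHCII+ cells, above all 3 DTR- arrays, a difference of 0.83 ± 0.27 that did not pass (adjusted p = 0.14). In the untimed set DTR+ arrays were at 12.49 and 12.52 and DTR- arrays at 11.62 and 11.77, a difference of 0.81 ± 0.33 that did not pass either (adjusted p = 0.11). With only the arrays compared in the fit, the untimed difference had an adjusted p of 3.7e-05, and with array quality weights the 8 h difference had 0.0044 and the untimed one 0.0014. No comparison of the MHCII subsets passed for Ptgs2.

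Ptges, the enzyme that acts after the cyclooxygenase, was a dim probe with a small range. In MHCII- cells it lay at 7.64 and 7.62 at day 0 and at 8.05 in both DTR- arrays of day 1. It rose by 0.42 ± 0.13 (adjusted p = 0.017 by limma), a call lost without any 1 of the 4 arrays (adjusted p 0.075 to 0.079). In MHCII+ cells it lay at 7.50 and 7.60 at day 0 and 7.88 and 7.77 at day 1, a difference of 0.27 ± 0.13 that missed the threshold (adjusted p = 0.10) but passed after quantile normalization (0.37, adjusted p = 0.020) or centring on array medians (0.37, 0.021). The highest of its 18 group means were those of day 1 DTR+ MHCII- (8.16 and 8.18) and day 1 DTR- MHCII- cells. No genotype or subset comparison passed for Ptges, and in the untimed set its difference was 0.25 ± 0.13 (95% interval -0.02 to 0.51).

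Hpgd, which inactivates prostaglandin E2, showed the largest changes of the 7 genes. It lay at 11.59 and 11.28 in day 0 MHCII+ arrays and fell to 8.13 and 8.35 at day 1. In MHCII- arrays it lay at 12.06 and 12.03 at day 0 and at 7.50 and 7.60 at day 1, about the level of the filter. Hpgd was thus 9.16-fold lower at day 1 in MHCII+ cells (-3.20 ± 0.25, adjusted p = 2.5e-11 by limma) and at least 22.3-fold lower in MHCII- cells (-4.49 ± 0.25, adjusted p = 1.6e-15). Without the day 0 library with the high neutrophil sum the second difference was -4.48. At day 4 it had risen to 11.62 and 11.46 in MHCII+ and 11.21 and 11.35 in MHCII- arrays, rises of 3.30 ± 0.25 (9.85-fold, adjusted p = 4.1e-11) and 3.73 ± 0.25 (at least 13.1-fold, adjusted p = 3.4e-13). The MHCII- arrays of day 4 lay below those of day 0, a difference that was not tested. All 4 of these calls held under every alternative run. From day 4 to day 7 its differences were within the spread between arrays (adjusted p 0.85 in MHCII+ and 0.83 in MHCII- cells).

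The order of the Hpgd group means split into a pair of blocks. The 13 groups of day 0, day 4 and day 7 other than untimed DTR+ had means of 11.28 to 12.04, and neighbours in that order differed by at most 0.22 and overlapped, except day 0 MHCII- at the top, whose arrays lay above those of the next group. Below a gap of 2.68 came the other 5 groups, 4 of day 1 and the untimed day 7 DTR+ group, at 7.35 to 8.60. Within day 1 the subsets differed too: in DTR+ mice Hpgd lay at 8.38 and 8.82 in MHCII+ and 7.47 and 7.22 in MHCII- cells (1.26 ± 0.25, adjusted p = 0.0018). That call was lost without replicate 2 of the MHCII+ arrays (1.04, adjusted p = 0.12) or of the MHCII- arrays (1.13, 0.074). The DTR- arrays of day 1 gave 0.69 ± 0.25 (adjusted p = 0.24), which passed with array quality weights (0.0016) and with only the arrays compared (0.0044).

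**Figure D2:**
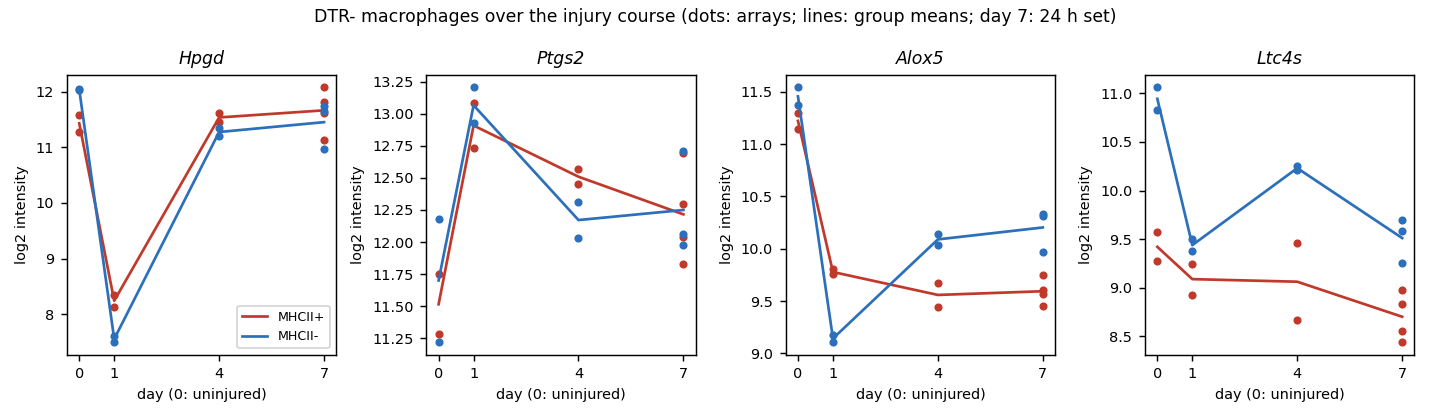
Log2 intensity (vertical axes) of Hpgd, Ptgs2, Alox5 and Ltc4s in DTR- arrays (dots) by day (horizontal axis, day 0 uninjured), with lines through the group means of MHCII+ (red) and MHCII- (blue) cells; day 7 is the 24 h set. Hpgd falls at day 1 and rises by day 4, Ptgs2 is highest at day 1, and Alox5 falls in both subsets at day 1 and rises by day 4 only in the MHCII- line.

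The 5-lipoxygenase fell from day 0 to day 1, with the larger fitted fall in MHCII- cells. Alox5 lay at 11.30 and 11.14 in day 0 MHCII+ arrays and at 9.75 and 9.80 at day 1. In MHCII- arrays it went from 11.54 and 11.37 to 9.11 and 9.17. The falls were -1.44 ± 0.15 (2.72-fold, adjusted p = 7.5e-09 by limma) and -2.31 ± 0.15 (4.98-fold, adjusted p = 6.7e-14), and both held under every alternative run, the second at -2.23 without the day 0 library with the high neutrophil sum. By day 4 the MHCII- arrays, at 10.04 and 10.14, had risen by 0.95 ± 0.15 (adjusted p = 1.2e-05), while the MHCII+ arrays lay at 9.45 and 9.67 (-0.22, adjusted p = 0.37). The highest of the 16 other group means was 10.52, below all 4 day 0 arrays.

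The order of the subsets in Alox5 turned over between days. At day 1 it was higher in MHCII+ than in MHCII- cells of DTR- mice by 0.64 ± 0.15 (adjusted p = 0.011), and at day 4 and day 7 it was lower in MHCII+ cells. In the 24 h DTR- set the MHCII+ arrays lay at 9.45 to 9.75 and all 3 MHCII- arrays above them at 9.97 to 10.33 (-0.61 ± 0.11, adjusted p = 0.00089), at -0.60 (0.0039) without the MHCII+ library with the high eosinophil sum and -0.73 (0.00034) without the MHCII- library with the high neutrophil sum. In the 8 h DTR+ set it lay at 9.49 to 9.99 against 10.38 to 10.62 (-0.79 ± 0.12, adjusted p = 6.7e-05), and at -0.66 without the library with the high T cell sum. The DTR- 8 h arrays (-0.35 ± 0.11, adjusted p = 0.13), the day 4 arrays (-0.53 ± 0.15, 0.057) and the DTR+ 24 h arrays (-0.32, 0.43) did not pass. The change of the subset difference was itself tested, and was 0.87 ± 0.21 from day 0 to day 1 (adjusted p = 0.011) and -1.17 ± 0.21 from day 1 to day 4 (adjusted p = 0.0017). The day 1 subset call was lost without any 1 of its 4 arrays (adjusted p 0.075 to 0.15). The first change was lost without any 1 of 4 arrays, at 0.79 (0.081) without day 0 MHCII+ replicate 2, 0.78 (0.068) without day 0 MHCII- replicate 1, 0.85 (0.0505) without day 1 MHCII+ replicate 2 and 0.84 (0.056) without day 1 MHCII- replicate 1. With only the arrays compared, the 24 h DTR- and 8 h DTR+ calls were lost (adjusted p 0.0504 and 0.068).

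Alox5ap, the membrane partner of 5-lipoxygenase, was bright and varied little. All 45 arrays lay between 12.01 and 12.91, and no day or subset comparison passed. From day 0 to day 1 it differed by -0.16 ± 0.11 in MHCII+ cells (95% interval -0.39 to 0.07) and 0.07 ± 0.11 in MHCII- cells (-0.16 to 0.30), where Alox5 fell 2.72-fold and 4.98-fold.

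Ltc4s, which makes leukotriene C4, was the gene with the clearest subset difference in uninjured muscle. It lay at 9.57 and 9.27 in day 0 MHCII+ and at 10.83 and 11.06 in day 0 MHCII- arrays (-1.52 ± 0.34, adjusted p = 0.0014 by limma). Day 0 was also the stage at which most genes differed between the subsets, 19.0% of all genes, and 2 of the 7 did, Ltc4s and Alox15, or 1 without Alox15. At day 1 the MHCII- arrays had fallen to 9.38 and 9.50 (-1.51 ± 0.34, adjusted p = 0.0011), and the MHCII+ arrays lay at 8.93 and 9.25 (-0.33, adjusted p = 0.47). Without the day 0 library with the high neutrophil sum these were -1.64 for the subset difference (adjusted p = 0.0082) and -1.63 for the fall (0.0067). At day 4 it was at 8.66 and 9.46 in MHCII+ and 10.21 and 10.25 in MHCII- arrays, a difference of -1.17 ± 0.34 that did not pass (adjusted p = 0.068) except without replicate 3 of the MHCII+ arrays (-1.57, 0.042), with only the arrays compared (0.023) or with array quality weights (0.0064).

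The group mean of Ltc4s was lower in MHCII+ than in MHCII- cells in all 8 subset comparisons, and 2 of the 8 passed. The other that passed was that of the 8 h DTR+ set, with 8.09, 9.25 and 8.94 in MHCII+ and 10.38, 9.59 and 9.54 in MHCII- arrays (-1.08 ± 0.28, adjusted p = 0.014), where 7.98% of all genes differed. It was -0.74 (adjusted p = 0.17) without replicate 1 of the MHCII+ arrays, the library with the high T cell sum, and -0.81 (0.091) without replicate 3 of the MHCII- arrays. With only the arrays compared its adjusted p was 0.16, and with array quality weights the difference was -0.64. The 24 h DTR- difference, -0.81 ± 0.26, missed the threshold (adjusted p = 0.063) except without replicate 2 of the MHCII+ arrays (-0.90, 0.040), with only the arrays compared (0.027) or with array quality weights (0.0086). It was -0.76 (0.18) without the library with the high eosinophil sum and -0.94 (0.072) without that with the high neutrophil sum.

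Alox15, the 12/15-lipoxygenase, lay below the filter in 16 of the 18 groups. In uninjured muscle it was at 7.82 and 8.45 in MHCII- and 7.00 and 7.47 in MHCII+ arrays (-0.90 ± 0.24, adjusted p = 0.0074 by limma). At day 1 the MHCII- arrays were at 6.68 and 6.61, under the filter, and the MHCII+ arrays at 6.78 and 6.98. In MHCII- cells Alox15 was thus at least 1.48-fold lower at day 1 than at day 0, with a fitted difference of -1.49 (adjusted p = 1.5e-05). Without the day 0 library with the high neutrophil sum the fitted difference was -1.80 and the subset difference -1.21. The subset difference was lost without day 0 MHCII+ replicate 1 (-0.66, adjusted p = 0.12), without day 0 MHCII- replicate 2 (-0.59, 0.20) and with only the arrays compared (0.066). Since Alox15 passed the filter only through its high groups, its calls here and below describe those high groups and support nothing about the groups in which it is dim.

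Markers of other cells moved with the day 0 values. Of the 10 neutrophil genes, 9 lay above the filter in day 0 MHCII- cells and 1 in day 0 MHCII+ cells, by the mean of 2 arrays. The count in MHCII- cells rests largely on replicate 1. The mean log2 over the 10 genes was 10.34 in that array and 7.52, under the filter, in replicate 2. In the day 0 MHCII+ arrays it was 6.58 to 6.62. Ccr3, a receptor of eosinophils, was at 8.56 and 8.20 in day 0 MHCII- and 6.61 and 6.73 in day 0 MHCII+ arrays. The summed eosinophil genes were 774 to 901 and 625 to 702, and the defining granule genes Prg2 and Epx lay below the filter in every group. The mast cell sum was 1219 to 1237 in day 0 MHCII- and 666 to 885 in MHCII+ arrays, with Hdc the only 1 of the 9 above the filter in any group. The dendritic cell sum was 12936 to 15045 in day 0 MHCII+ and 4021 to 4884 in MHCII- arrays. The platelet sum, which rests mainly on Ppbp and Pf4, was 14886 to 23321 in DTR- arrays at day 1 against 7134 to 15407 at day 0. The part of these cells in the Ltc4s, Alox15, Alox5 and Hpgd differences was not tested.

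**Figure D3:**
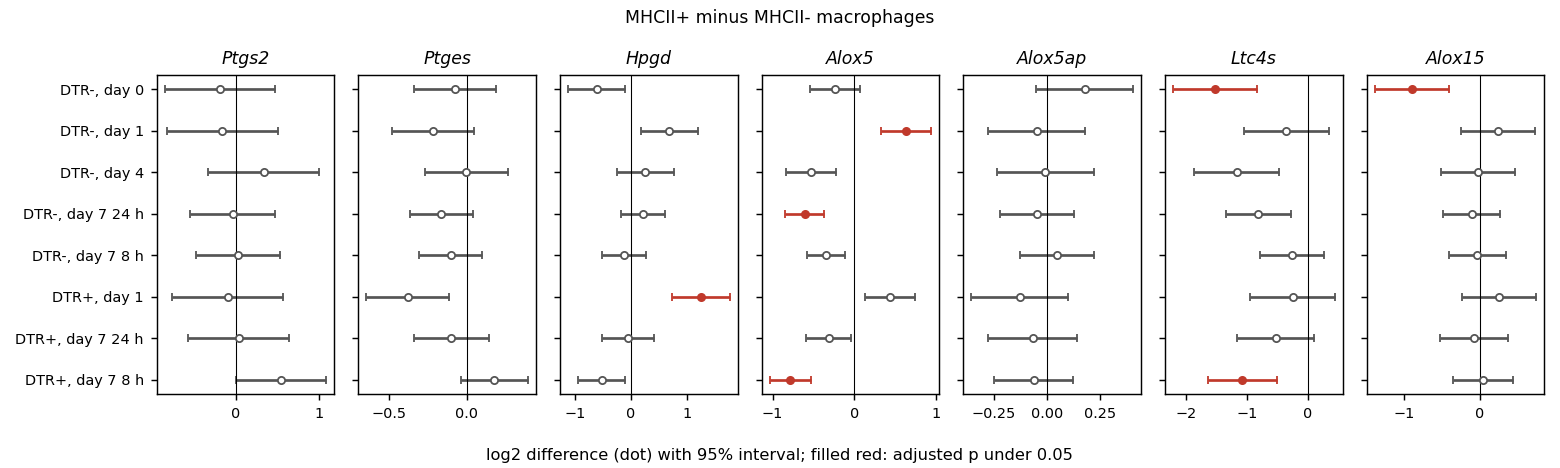
Log2 difference MHCII+ minus MHCII- (dot, horizontal axis, a separate scale for each gene) with its 95% interval for the 7 genes in the 8 comparisons of the subsets (vertical axis). Filled red marks an adjusted p under 0.05. Ltc4s lies left of 0 in all 8 comparisons, and Alox5 lies right of 0 at day 1 and left of it elsewhere.

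In the subset comparisons of DTR- mice, 4 of 35 pairs of gene and comparison passed: Ltc4s and Alox15 at day 0, and Alox5 at day 1 (2.45% of all genes) and at 24 h (5.23%). Over these 5 comparisons 6.20% of all pairs passed, and 1 of the 4 is Alox15, which passed the filter only through its high groups. None passed at day 4 (2.12% of all genes; 2 of 7 with an unadjusted p under 0.05) or at 8 h (2.21%; 1 of 7). In DTR+ mice 3 of 21 pairs passed: Hpgd at day 1 (2.26%) and Alox5 and Ltc4s at 8 h, against 3.87% over all genes. None passed at 24 h (1.37%; 1 of 7 unadjusted). Between days, the subset difference changed from day 0 to day 1 for Hpgd, Alox5 and Alox15 (3 of 7, against 4.66% of all genes), with shifts of 1.30 ± 0.36 (adjusted p = 0.028), 0.87 ± 0.21 and 1.14 ± 0.34 (0.048). From day 1 to day 4 it changed for Alox5 only (1.23% of all genes), and from day 4 to day 7 for none (0.0452%, with 0 of 7 unadjusted). In all 4 of 21 pairs passed, against 1.98% over all genes. Alox15 is 1 of the 4, and without it 2 genes changed from day 0 to day 1. The Hpgd shift was lost without any 1 of 7 of its 8 arrays (adjusted p 0.052 to 0.17) and the Alox15 shift under 8 alternatives (0.055 to 0.28), 6 of them the loss of a single array. Without the day 0 library with the high neutrophil sum they were 1.28 (0.079) and 1.45 (0.018).

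DTR+ arrays were compared with DTR- arrays, which compares genotypes. The loss of regulatory T cells was not measured here, and Foxp3 lay below the filter in every group. In the 6 comparisons at day 1, 24 h day 7 and 8 h day 7 none of the 7 genes passed. All genes passed at 0 and 0% at day 1, 0.0542% and 0.00903% at 24 h and 0.488% and 0.0181% at 8 h, in MHCII+ and MHCII- cells in that order. Of the 42 pairs, 3 had an unadjusted p under 0.05 by limma, all in MHCII+ cells: Alox5 at 24 h (0.54 ± 0.13, adjusted p = 0.14), which was 0.53 (0.39) without the library with the high eosinophil sum, and Ptgs2 (0.83 ± 0.27, 0.14) and Ltc4s (-0.85 ± 0.28, 0.15) at 8 h. At 24 h the DTR+ MHCII+ arrays had Alox5 at 10.22 and 10.05, above all 4 DTR- arrays. At 8 h Ltc4s was -0.51 (adjusted p = 0.82) and Ptgs2 0.85 (0.56) without the library with the high T cell sum, and passed without replicate 3 of the DTR+ arrays (-1.09, 0.029). None of the 35 differences between genotype effects in these sets passed, where 0% of all genes did and 5 of the 35 had an unadjusted p under 0.05.

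The untimed day 7 set was different. There 5 of the 7 genes passed between DTR+ and DTR- MHCII+ cells, against 11.5% of all genes, 1 higher and 4 lower in DTR+ cells (5.32% and 6.20%); the 1 higher is Alox15, and 4 passed without it. With Alox15 counted, these were the only 5 of the 49 genotype pairs to pass, against 1.73% over all genes. Hpgd was at 7.86 and 8.42 in DTR+ and 11.84 and 11.65 in DTR- arrays, 12.2-fold lower with the transgene (-3.61 ± 0.25, adjusted p = 1.1e-12 by limma). Alox5 was at 8.27 and 7.95 against 9.82 and 9.65, 3.08-fold lower (-1.62 ± 0.15, adjusted p = 6.9e-10). Ltc4s was at 7.90 and 7.72 against 9.37 and 9.27, 2.85-fold lower (-1.51 ± 0.34, adjusted p = 0.0022). The DTR+ means of Alox5 and Ltc4s were the lowest of their 18 groups, and that of Hpgd lay among the day 1 groups.

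Alox15 moved the other way. It was at 8.98 and 7.95 in untimed DTR+ and 6.77 and 6.96 in DTR- arrays, which lie under the filter, so that it was at least 1.86-fold higher (fitted difference 1.60 ± 0.24, adjusted p = 9.5e-06 by limma), and its DTR+ mean was the highest of the 18 groups. The DTR+ arrays differed from each other by more than in any other group of Alox15. Alox5ap was at 12.01 and 12.06 against 12.38 and 12.39, a small fall (-0.35 ± 0.11, adjusted p = 0.039) that missed the threshold without any 1 of the 4 arrays (adjusted p 0.11 to 0.26), with no intensity filter (0.076), after centring on array medians (0.10) and with no intensity trend (0.056). The calls for Hpgd, Alox5 and Ltc4s held under every alternative run. That for Alox15 held under those in which it was tested. Its highest group mean, 8.46, lay under the stricter filter of log2 8.5, so that alternative was not run for it. Ptgs2 and Ptges did not pass. Ptges2, another prostaglandin E synthase, was higher by 0.53 (adjusted p = 0.040), a call lost under 7 alternatives, among them without any 1 of the 4 arrays (0.061 to 0.38).

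**Figure D4:**
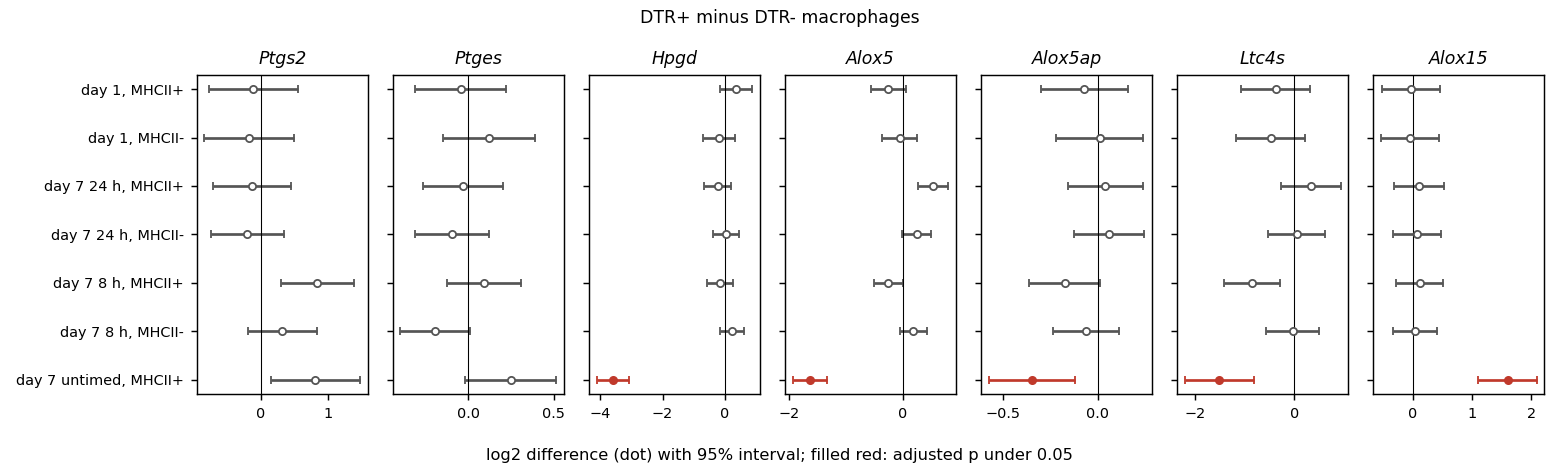
Log2 difference DTR+ minus DTR- (dot, horizontal axis, a separate scale for each gene) with its 95% interval for the 7 genes in the 7 genotype comparisons (vertical axis). Filled red marks an adjusted p under 0.05. All 5 filled points are in the untimed day 7 MHCII+ comparison, 4 left of 0 and Alox15 right of it.

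Whether the untimed effect differed from those of the other day 7 sets was tested in MHCII+ cells, a comparison added after its values were seen. The untimed effect on Hpgd minus that at 24 h was -3.37 ± 0.33 (adjusted p = 1.2e-08 by limma), and minus that at 8 h it was -3.44 ± 0.33 (3.2e-09). For Alox5 the differences were -2.16 ± 0.20 (2.1e-09) and -1.38 ± 0.19 (6.5e-06), and for Alox15 1.50 ± 0.32 (0.0019) and 1.49 ± 0.31 (0.0016). Ltc4s differed from 24 h (-1.84 ± 0.45, 0.0075) and not beyond the threshold from 8 h (adjusted p = 0.40). Thus 4 of 7 and 3 of 7 passed, or 3 and 2 without Alox15, for which only the untimed DTR+ group lay above the filter, against 7.52% and 7.90% of all genes (7.71% over both), and both comparisons use the same 4 untimed arrays. The Alox15 differences were lost without replicate 1 of untimed DTR+ (0.98, adjusted p = 0.082, and 0.97, 0.076), the first also with only the arrays compared (0.066), and the Ltc4s difference was lost without replicate 1 of 24 h DTR+ MHCII+ (-1.44, 0.075). Without the 24 h library with the high eosinophil sum the differences from 24 h were -3.42 for Hpgd, -2.16 for Alox5, 1.33 for Alox15 and -1.79 for Ltc4s, and without the 8 h library with the high T cell sum those from 8 h were -3.51 for Hpgd, -1.50 for Alox5 and 1.45 for Alox15, all still past the threshold. The untimed set differs from the others in age and in having no DT time in its titles, and from the 8 h set in its gate.

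Markers of other cells also moved with the untimed genotype. Siglecf was at 8.89 and 8.99 in DTR+ and 7.90 and 7.97 in DTR- arrays, and the sum of the eosinophil genes was 924 to 974 against 678 to 694. Siglecf was the only 1 of the 6 eosinophil genes above the filter in either group, so that sum is not separate from it. Prg2, Epx and Ccr3 lay below the filter in both groups. Clec9a, a gene of cross-presenting dendritic cells, was at 10.29 and 10.10 against 7.00 and 7.02. The dendritic cell sums were 2409 to 2800 and 2732 to 2756, so other genes of that list together were lower where Clec9a was higher. Of its 7 genes, 3 lay above the filter in DTR+ and 2 in DTR- cells, and Xcr1 lay below it in every group. The T cell sum was 956 to 1043 against 1905 to 1975, with Cd4 the only 1 of the 7 genes above the filter in either group. The platelet sum was 2829 to 3365 against 7073 to 7678 and rests mainly on Ppbp and Pf4. Over all groups these reached means of 13.53 and 13.42, and Itga2b and Gp9 only 7.77 and 7.70. The neutrophil sum was 1115 to 1350 against 914 to 950, with 1 of the 10 genes above the filter in each group. The 7 macrophage markers were above the filter in both groups, with sums of 48885 to 51400 and 56839 to 57303. Their part in the enzyme differences was not tested.

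The rest of the pathway was read from 5 lists with 57 genes, of which 52 were listed and 32 passed the filter. Among 8 phospholipases A2 tested, which feed both branches, 1 rose and 2 fell in MHCII+ cells from day 0 to day 1, and 1 rose and 3 fell in MHCII- cells; over all genes 18.6% rose and 17.0% fell in MHCII+ and 9.40% and 16.2% in MHCII- cells. Pla2g4a, the cytosolic enzyme that releases arachidonic acid, rose by 0.93 ± 0.22 in MHCII+ cells (adjusted p = 0.0015) and by 0.59 ± 0.22 in MHCII- cells (0.047), the latter lost without any 1 of its 4 arrays (0.076 to 0.26). Pla2g2d, a secreted enzyme, fell from 10.92 and 10.77 to 7.46 and 7.83 in MHCII+ and from 11.12 and 11.61 to 7.16 and 7.51 in MHCII- arrays (-3.20 ± 0.27 and -4.03 ± 0.27, adjusted p = 1.2e-10 and 1.5e-13). At day 4, when Hpgd had risen again, Pla2g2d was still at 7.57 and 7.73 in MHCII+ and 7.93 and 8.10 in MHCII- arrays, and it rose from day 4 to day 7, by 1.37 ± 0.24 and 2.08 ± 0.25 (adjusted p = 0.00094 and 2.7e-06). The first of these missed the threshold without day 4 MHCII+ replicate 2 (1.29, 0.056). They were 1.55 and 2.25, both past the threshold, without the 24 h libraries with the high eosinophil and neutrophil sums. The list median was -0.03 and -0.31 from day 0 to day 1, beside -0.01 and -0.03 over all genes.

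Of 9 other prostanoid enzymes tested, none changed in MHCII+ and 3 fell in MHCII- cells from day 0 to day 1, with list medians of 0.14 and -0.17, against 35.6% of all genes changed in MHCII+ and 16.2% fallen in MHCII- cells. Hpgds, the hematopoietic prostaglandin D synthase, lay at 11.55 and 11.57 in day 0 MHCII- and 10.19 and 9.33 in day 0 MHCII+ arrays (-1.80 ± 0.24, adjusted p = 6.3e-07). At day 1 it was at 8.69 and 9.10 in MHCII- and 9.11 and 9.54 in MHCII+ arrays, a change of -2.66 in MHCII- cells (adjusted p = 1.1e-10) and a difference of -0.44 in MHCII+ cells (0.15). By day 4 it rose by 3.10 ± 0.24 in MHCII- and 2.27 ± 0.24 in MHCII+ cells (adjusted p = 6.0e-12 and 1.8e-08). Ptgr1, Ptgr2 and Prxl2b, which reduce prostaglandins or their precursors, were lower in MHCII+ than in MHCII- cells at day 0, by -1.08, -0.87 and -0.63 (adjusted p 0.00066, 0.00080 and 0.0039). Cbr1, a carbonyl reductase, rose from day 1 to day 4 in MHCII- cells (1.02 ± 0.17, 2.4e-05).

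Of 5 other lipoxygenase and leukotriene enzymes tested, 2 fell in MHCII+ cells, and 1 rose and 3 fell in MHCII- cells, from day 0 to day 1. Over all genes 17.0% fell in MHCII+ and 9.40% rose and 16.2% fell in MHCII- cells. The list medians were -0.16 and -0.52. Ggt5, which converts leukotriene C4 to D4, fell by 1.58 in MHCII- cells (± 0.19, adjusted p = 5.4e-08) and rose again by 0.91 ± 0.19 by day 4 (0.00039). Cyp4f18, which breaks down leukotriene B4, fell by 1.31 in MHCII+ cells at day 1 (adjusted p = 5.9e-06) and rose by 1.51 ± 0.20 by day 4 (1.6e-06). It was higher in MHCII+ than in MHCII- cells of the 8 h DTR- set (0.81 ± 0.15, adjusted p = 0.0013).

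Among receptors and carriers, 6 of prostanoids and 4 of leukotrienes or lipoxins were tested. From day 0 to day 1, 1 of the 6 rose and 3 fell in MHCII+ cells and 1 rose and 1 fell in MHCII- cells; of the 4, none changed in MHCII+ and 1 rose and 1 fell in MHCII- cells. The shares over all genes at this step were 18.6% and 17.0% in MHCII+ and 9.40% and 16.2% in MHCII- cells. Ptger4 (EP4), a receptor of prostaglandin E2, fell by 0.88 and 0.91 (adjusted p = 0.00054 and 0.00050) and rose by day 4 by 0.84 ± 0.19 in MHCII- cells (0.0013) and by 0.65 ± 0.19 in MHCII+ cells (0.019), the latter lost without any 1 of its 4 arrays (0.066 to 0.12). Abcc4, a transporter that exports prostaglandins, rose at day 1 in MHCII- cells (1.14 ± 0.21, 8.0e-05). Ltb4r1 (BLT1), the high-affinity receptor of leukotriene B4, lay at 7.66 and 7.62 in day 0 MHCII- and 9.09 and 9.15 in day 0 MHCII+ arrays (1.49 ± 0.19, 4.7e-07). It rose in MHCII- cells to 10.08 and 9.66 at day 1 (2.23 ± 0.19, 5.1e-11), and fell by 2.04 by day 4 (6.7e-10). Ptgir, the prostacyclin receptor, was higher in MHCII+ than in MHCII- cells at day 0 (1.35 ± 0.20, 4.9e-06). Without the day 0 MHCII- library with the high neutrophil sum, the day 0 differences were -1.81 for Hpgds, -1.27 for Ptgr1, -0.92 for Ptgr2, -0.63 for Prxl2b, 1.51 for Ltb4r1 and 1.36 for Ptgir. The changes to day 1 in MHCII- cells were then -4.28 for Pla2g2d, -2.67 for Hpgds, -1.41 for Ggt5, -0.86 for Ptger4, 1.12 for Abcc4 and 2.25 for Ltb4r1, and all 12 still passed (adjusted p at most 0.029).

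In the untimed set, 3 phospholipases A2 were higher and 1 lower in DTR+ cells, 1 and 1 of the other prostanoid enzymes, 0 and 1 of the other leukotriene enzymes, 1 and 1 of the prostanoid receptors and carriers, and 1 and 0 of those of leukotrienes, against 5.32% higher and 6.20% lower over all genes. Hpgds was at 9.84 and 10.60 in DTR+ and 11.97 and 11.91 in DTR- arrays (-1.71 ± 0.24, adjusted p = 2.1e-06 by limma). Ptger4 was lower (-0.92 ± 0.19, 0.00080), and Pla2g4a (1.10 ± 0.22, 0.00061) and Plaat3 (1.15 ± 0.19, 3.4e-05), another phospholipase, were higher. In these 4 the DTR+ and DTR- arrays did not overlap, and the calls held under every alternative run. Of the 106 pathway calls in all comparisons, 42 held under every alternative in which the gene was tested.

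**Figure D5:**
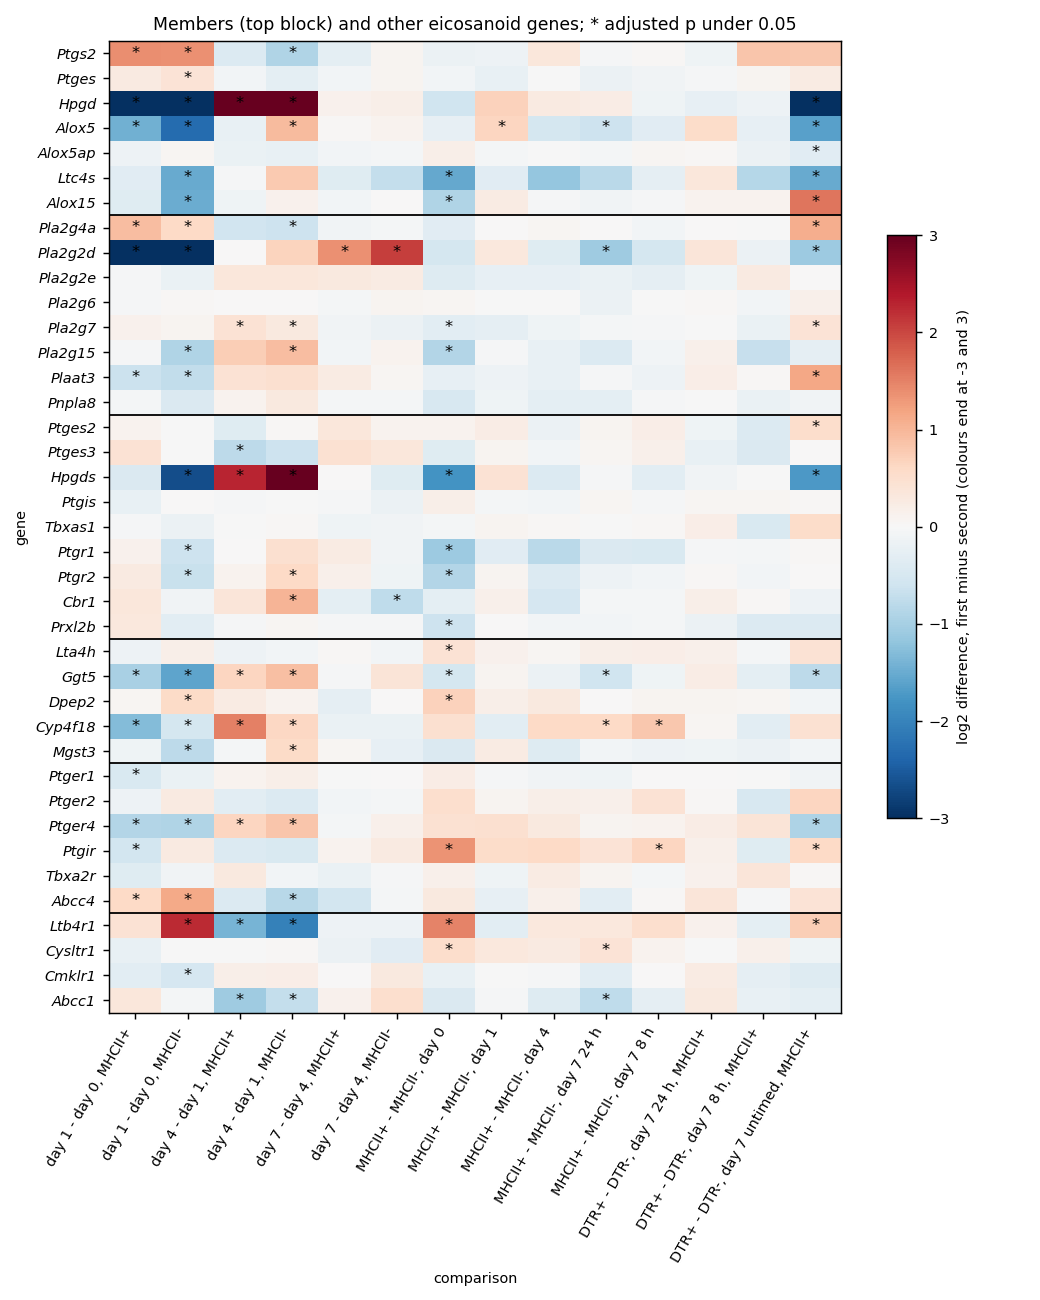
Log2 differences (colour, red higher and blue lower in the first group, colours end at -3 and 3) of the 7 genes (top block) and the 32 tested genes of the 5 pathway lists (blocks below, in the order phospholipases A2, prostanoid enzymes, leukotriene enzymes, prostanoid receptors and carriers, leukotriene receptors and carriers) in 14 comparisons (horizontal axis). A star marks an adjusted p under 0.05. Hpgd, Pla2g2d and Hpgds hold the darkest cells.

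Across the 18 group means the genes fell into a loose pattern, given as a description since the groups share injury stage and array set. Hpgd ran against Ptgs2 (Pearson r = -0.82) and Ptges (-0.73), and Ptgs2 with Ptges (0.71). Alox5 ran with Ltc4s (0.79) and Hpgd (0.69). The genes most like Hpgd among all tested were Abca9, Sorbs3 and Serinc3 (r = 0.96 each), and those most like Ptgs2 were Fam71f2 (0.94), Usp16 (0.93) and Taf2 (0.92). For Alox5 they were Rfk (0.94), Dennd2c (0.93) and Bank1 (0.91), and for Ltc4s Mfsd6, Stab1 and Ptpn18 (0.88 each). For Alox15 they were Dennd3 (0.91), Slc36a2 (0.87) and Ccl24 (0.84), for Ptges Micall2 (0.95), Fastkd1 (0.92) and Saa3 (0.88), and for Alox5ap Syne3 (0.93), Add3 (0.92) and Serpinb10 (0.90). Alox15 passed the filter in only 2 of the 18 groups, so its r values rest mainly on the few groups in which it is high.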

How the data were processed

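RNA (TriZol) of sorted macrophages was hybridized to 45 arrays. The deposited values are intensities on a linear scale, for which the submitters' processing notes name RMA and Affymetrix Power Tools as the authors' tools, in versions not given in the sources used here; RMA draws arrays toward 1 distribution, so shifts shared by most genes cannot be seen. Values ran from 9.43 to 24649 and array medians from 175 to 204. They were converted to log2 here. Of 24922 probe sets, 21425 had 1 symbol in the platform annotation, 1399 several and 2098 were not listed; the brightest per gene gave 19752 genes, and 11074 with a group mean at or above the median of all values (log2 7.57) in at least 1 group were tested; the values carry no detection call, so this filter stands in for one. limma 3.58.1 (R 4.3.3) fitted 18 group means to all 45 arrays (27 residual degrees of freedom, intensity trend), with Benjamini-Hochberg adjustment over all genes tested within each of 31 comparisons, 2 of them added after seeing the data. The script was tested on simulated data. Figures used Python 3.11.15, pandas 2.3.3, numpy 2.4.6 and matplotlib 3.10.9. For arrays, their number limits the precision.

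The genes and pathway lists were chosen with earlier results of these data known. Named were the members, up to 4 genes per pathway list and family of comparisons with the smallest p among those that passed, and the 3 genes most like each member by Pearson r. Deviations of same-numbered samples were correlated over genes in the 8 h DTR- subsets (0.48, 0.53 and 0.58). They were 0.24 to 0.29 in the day 0 and day 1 subsets and -0.02 to 0.36 in the 24 h DTR- subsets. Between DTR+ and DTR- samples of 8 h MHCII- cells they were 0.27 and 0.69, so a correlation does not show a shared animal. The labels do not state one. Alternatives were the filter, quantile normalization, median centring, no trend, array quality weights, the mean of all probe sets, only the arrays compared, the 8 h set for day 7, a replicate block and each array left out. Explanations were not tested.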

Additional observations from a re-analysis of the deposited data

Results flagged for a closer look

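In the group of 4 DTR- MHCII- arrays of the 8 h day 7 set, Alox5ap was at log2 12.15 in replicate 5 and at 12.41 to 12.43 in the other 3, a gap large against the range of the group. Such a gap arises by chance in about 1 of 20 cases. The 7 genes were each examined in the groups of 4 arrays, 14 cases of gene and group that share arrays.

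The difference between the subsets changed from day 0 to day 1 for Hpgd (1.30), Alox5 (0.87) and Alox15 (1.14), and from day 1 to day 4 for Alox5 (-1.17). The untimed day 7 genotype effect in MHCII+ cells differed from that at 24 h for Hpgd (-3.37), Alox5 (-2.16), Alox15 (1.50) and Ltc4s (-1.84), and from that at 8 h for Hpgd (-3.44), Alox5 (-1.38) and Alox15 (1.49). Each is a log2 difference of differences past the threshold in limma, with its error and p given above.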

How the results depend on the processing

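Calls were recounted under each alternative. With array quality weights, calls rose from 4 to 9 among DTR- subset pairs, from 3 to 7 among DTR+ subset pairs, from 5 to 11 among genotype pairs, from 13 to 20 among day pairs and from 0 to 2 among differences of genotype effects. Leaving out 1 array gave 3 to 5, 2 to 4, 4 to 6, 11 to 13 and 0 to 1 in the same order. It gave 1 to 4 for the subset differences between days (4 in the main fit) and 5 to 8 for the untimed differences (7 in the main fit). Where this left 1 array in a group, that array was taken to vary like the others. The replicate block gave 4, 3, 5, 13, 4, 0 and 7 calls, as without it; comparisons that share fewer than 2 numbers kept the fit without the block. In the 8 h DTR- subset comparison the block ended the call of 1 pathway gene, Ptgir (0.55, adjusted p = 0.055 by limma, from 0.64).

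Of 64 pairs of member and comparison with an unadjusted p under 0.05, 36 were called. Of the 36 calls, 20 held under every alternative in which the gene was tested. Alox15 and Ptges did not pass the stricter filter of log2 8.5 and were not tested under it. Over 955 recomputed values none changed direction, 54 lost and 44 gained the threshold. Among pathway genes, Cbr1 from day 4 to day 7 in MHCII- cells was -0.75 (adjusted p = 0.0082) and 0.094 (0.79) with the 8 h set as day 7. Groups of 2 to 4 arrays limit all of these, and Alox15 and Ptges lie near the filter.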
